A study of Homo sapiens and Mus musculus with 24 samples.

Results

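LNCaP cells kept with fibroblasts that the labels call CCAFs were compared with LNCaP cells kept alone, both under the antiandrogen enzalutamide. The comparison uses 4 of the 24 samples of the series and 4 of its 12 LNCaP libraries: 2 of CCAF coculture with 1 µM enzalutamide and 2 of LNCaP alone with 1 µM enzalutamide, all taken at day 7. LNCaP is an established human prostate cancer epithelial line that responds to androgen, and the labels give its genotype as WT in every group. CCAF is not spelled out in the labels, nor is CRPCCAF, the name of the fibroblasts in another culture condition. Titles of the CCAF cocultures carry the tag p53 and those of the CRPCCAF cocultures the tag p53_ca. Fibroblast samples of the series with the tags p53 and ca came from PtenPC-/-; Trp53PC-/- mice, the latter from such mice with ADT, but the labels do not say that these are the fibroblasts of the cocultures. The other 8 LNCaP libraries are 2 each of LNCaP alone with the vehicle DMSO, CCAF coculture with DMSO, CRPCCAF coculture with DMSO and CRPCCAF coculture with 1 µM enzalutamide, also at day 7. Members were found by the columns' names, dates that had replaced gene names were dropped, and genes at 1 or more in at least 2 of the 12 libraries were kept, which left 16042 of 44564 names.

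The androgen receptor is a nuclear receptor that, once bound by androgen, turns on genes of the luminal prostate cell, among them the kallikreins KLK3 (the gene of prostate-specific antigen) and KLK2. Enzalutamide binds the receptor and blocks it, and prostate cancer cells that depend on androgen then leave the cell cycle. Fibroblasts of a tumour supply growth factors and matrix, and they can change the supply of oxygen and nutrients in a shared culture. These data hold no measure of that supply.

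Levels are given as RPKM, a read count scaled to transcript length and library size, for each library in turn. Differences are on the log2(RPKM + 1) scale with their standard error (SE), and understate the change of genes at low levels, and fold changes are ratios of mean RPKM. A gene is said to rise, fall or change where its adjusted p was under 0.05 in limma. The labels state 2 biological replicates a condition but name no separate cultures, so p-values measure the spread between these libraries. In bulk RNA, fewer cells of a type and less RNA per cell cannot be told apart.

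The depth worked out from the step that 1 read makes in the RPKM values was 17850431 to 22187880 reads in the 12 LNCaP libraries. All 20 luminal epithelial markers passed the filter on low values, with KRT8 at 263 and 269 RPKM alone and 282 and 291 in coculture, and the summed level of the 20 ran from 2201 to 2241 RPKM alone and from 2274 to 2333 in coculture. Of these 20 markers 7 rose and none fell, beside 11.9% and 7.51% of all genes tested. KRT19, a keratin, was at 2.54 and 3.21 RPKM alone and 5.85 and 7.36 in coculture, and DSP, a desmosome protein, at 41.8 and 40.4 and at 60.1 and 59.3. Of 25 fibroblast and matrix markers, 16 were under 1 RPKM in all 12 libraries, among them COL1A2, COL3A1, DCN, LUM, POSTN, FAP, PDGFRA and THY1. Their summed level under enzalutamide was 155 to 157 RPKM alone and 149 in both CCAF coculture libraries. COL6A1 held 48.3 to 59.4 RPKM of it and FN1 48.9 to 56.4. COL1A2, POSTN and THY1 were at 0 in both of these CCAF coculture libraries. Beside the same shares of all genes, 3 of the 9 fibroblast markers tested rose (S100A4, FSTL1 and TNC) and 3 fell (COL5A2, COL6A1 and COL6A2). The calls of FSTL1 (log2 difference 0.24, adjusted p = 0.0311), COL5A2 (-0.37, adjusted p = 0.0196) and COL6A2 (-0.34, adjusted p = 0.0242) in limma were lost without any 1 of the 4 libraries. TNC, at 0.16 to 0.72 RPKM in these 4 libraries, passed the filter through other groups. S100A4 was at 0.62 to 1.99 RPKM in the 4. Among 11 leukocyte markers CD68 alone passed the filter (log2 difference 0.31, adjusted p = 0.0346 by limma, but 0.216, 0.0818 and 0.162 without the first library of LNCaP alone and the first or second coculture library), and their summed level ran from 5.11 to 6.21 RPKM alone and from 6.64 to 7.38 in coculture. The sources used here do not say how reads of the fibroblasts were kept apart from those of LNCaP.

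To show the sequence in front of genes that moved together, the 250 bases before the start site are given for 2 kallikreins, 2 genes induced by low oxygen and 2 genes of DNA replication, each with 1 listed start. The sequences are RefSeq's, on build GRCh38.p14, and the positions are those of this build, since the deposited table names genes by symbol only. Capitals mark matches on either strand to letters known for the factor of each group. A match is a description of the letters and not a site shown to be used.

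For the kallikreins the letters searched were GAACA and, after 4 free bases, GTNCT, a loose form of the paired element bound by the androgen receptor, and were chosen after these promoters were read. KLK3 lies at chr19:50854665-50854914 on the plus strand and KLK2 at chr19:50873189-50873438 on the plus strand.
KLK3 promoter: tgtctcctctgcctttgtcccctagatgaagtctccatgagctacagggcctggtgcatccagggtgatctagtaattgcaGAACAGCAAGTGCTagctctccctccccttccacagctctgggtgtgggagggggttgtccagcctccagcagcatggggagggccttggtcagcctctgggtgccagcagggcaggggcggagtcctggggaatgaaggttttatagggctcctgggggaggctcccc
KLK2 promoter: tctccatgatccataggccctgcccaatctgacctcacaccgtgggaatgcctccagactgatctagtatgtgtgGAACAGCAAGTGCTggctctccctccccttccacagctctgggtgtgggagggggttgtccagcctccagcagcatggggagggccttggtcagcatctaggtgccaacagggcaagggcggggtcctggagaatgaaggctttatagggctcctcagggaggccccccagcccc
The match began 169 bases before the KLK3 start and 175 bases before the KLK2 start, with the same 14 letters in both. Of all 35116 promoters in the table, 76 held such a match, which is 0.216%. Among the 52 promoters listed for 27 of the androgen-activated genes tested, 2 held it, those of KLK3 and KLK2.

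For the low-oxygen genes the letters were ACGTG and GCGTG, the core of the element bound by hypoxia-inducible factors, which is also common by chance. The PGK1 promoter is chrX:78103998-78104247 on the plus strand and the PLOD2 promoter chr3:146161185-146161434 on the minus strand.
PGK1 promoter: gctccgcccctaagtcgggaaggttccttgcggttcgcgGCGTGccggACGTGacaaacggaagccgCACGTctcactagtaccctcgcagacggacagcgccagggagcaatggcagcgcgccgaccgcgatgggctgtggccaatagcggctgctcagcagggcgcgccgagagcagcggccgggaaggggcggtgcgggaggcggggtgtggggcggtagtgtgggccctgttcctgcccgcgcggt
PLOD2 promoter: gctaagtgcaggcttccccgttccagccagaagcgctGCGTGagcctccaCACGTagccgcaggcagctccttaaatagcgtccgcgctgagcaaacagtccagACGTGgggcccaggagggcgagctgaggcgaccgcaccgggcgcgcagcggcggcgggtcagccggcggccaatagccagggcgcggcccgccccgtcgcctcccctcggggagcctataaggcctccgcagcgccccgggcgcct
Each held 3 matches. The core was present in 15172 of 35116 promoters (43.2%), in 26 of 47 promoters of the 21 glycolysis genes (55.3%) and in 23 of 27 promoters of 18 of the hypoxia-induced genes (85.2%).

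For DNA replication the letters were TTTNNCGC, contained in many elements bound by E2F factors. The MCM6 promoter is chr2:135876444-135876693 on the minus strand and the E2F1 promoter chr20:33686386-33686635 on the minus strand.
MCM6 promoter: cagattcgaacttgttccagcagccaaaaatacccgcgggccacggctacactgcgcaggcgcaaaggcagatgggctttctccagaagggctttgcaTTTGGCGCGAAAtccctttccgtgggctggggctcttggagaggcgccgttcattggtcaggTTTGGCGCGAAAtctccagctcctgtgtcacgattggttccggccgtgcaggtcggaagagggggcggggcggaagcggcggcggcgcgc
E2F1 promoter: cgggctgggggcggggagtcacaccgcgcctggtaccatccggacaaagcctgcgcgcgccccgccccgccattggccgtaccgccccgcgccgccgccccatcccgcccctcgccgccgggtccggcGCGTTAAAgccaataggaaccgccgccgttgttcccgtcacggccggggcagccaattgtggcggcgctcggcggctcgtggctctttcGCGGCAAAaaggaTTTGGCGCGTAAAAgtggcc
Each held 4 matches, some of which overlap on opposite strands. The letters were present in 2078 of 35116 promoters (5.92%), in 16 of 39 promoters of 30 replication genes (41.0%) and in 2 of 26 promoters of 23 mitosis genes (7.69%). Several promoters of 1 gene can overlap, so these counts are not of separate genes.

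Under enzalutamide, LNCaP cells with CCAFs had higher RNA of the kallikreins KLK3, KLK2 and KLK4 than LNCaP cells alone. RNA was also higher for glycolysis and low-oxygen genes and for all tested genes of the DNA replication and mitosis lists. RNA of IGFBP3, of the ID genes and of SMAD9 was lower. Of 16042 genes tested, 3107 changed (19.4%), of which 1903 rose (11.9%) and 1204 fell (7.51%). The changes were mostly small: the median size among genes that changed was 0.33, 128 genes rose by at least 1 and 29 fell by at least 1 on the log2 scale, and the median over all genes was 0.01. Protein-coding genes made up 87.6% of those that rose, 88.5% of those that fell and 70.4% of those that were not called. The count rested on having 2 libraries a group: it was 1672 or 1951 without the first or second library of LNCaP alone, 1874 or 1739 without the first or second coculture library, and 1958 when only these 2 groups were fitted.

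KLK3 showed the kallikrein pattern most plainly. Its level was 55.6 and 61.5 RPKM in LNCaP alone and 444 and 454 in CCAF coculture, with no overlap. The mean was 7.67-fold higher in coculture (log2 difference 2.92, SE 0.05, adjusted p = 3.94e-09, limma). KLK2 stood at 1.35 and 1.20 RPKM alone and at 10.9 and 12.1 in coculture. That is a 9.01-fold higher mean (log2 difference 2.46, SE 0.07, adjusted p = 6.06e-08, limma). The 2 genes are related in sequence, and how reads that fit both were counted is not stated. Both genes remained below their levels without the drug, where LNCaP alone had 1243 and 1145 RPKM of KLK3 and 54.6 and 48.1 of KLK2.

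**Figure D1:**
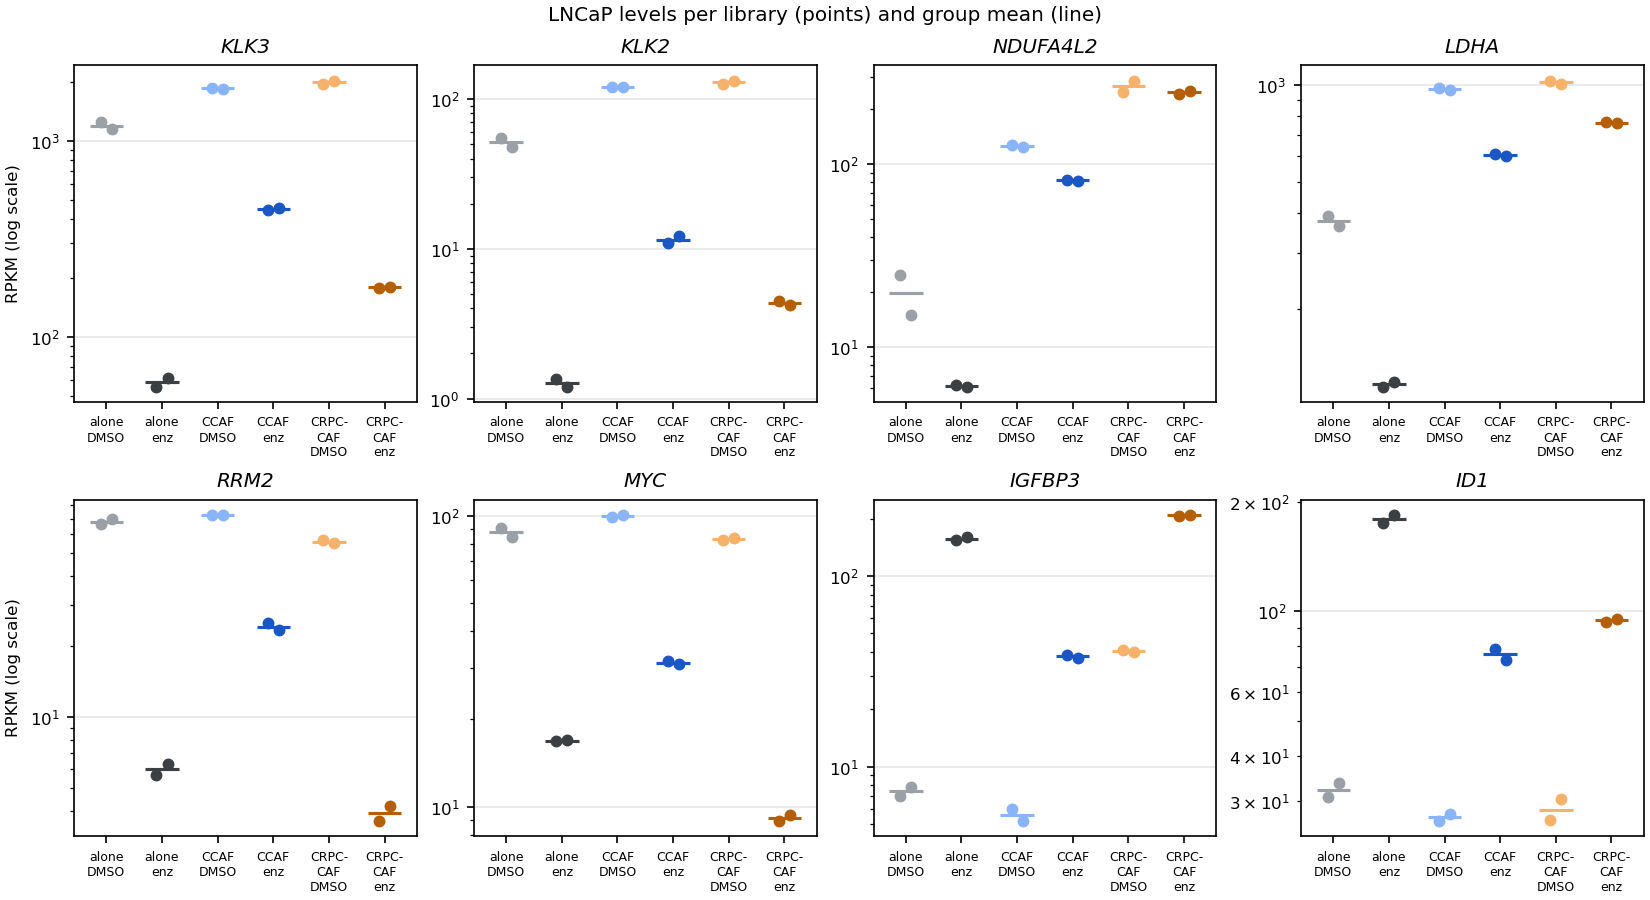
RPKM (log scale) of 8 genes in the 12 LNCaP libraries, with 1 point a library and a line at the mean of each group of 2; enz stands for enzalutamide. Under enzalutamide the CCAF coculture libraries lie above LNCaP alone for KLK3, KLK2, NDUFA4L2, LDHA, RRM2 and MYC and below it for IGFBP3 and ID1, with no overlap.

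Of 38 androgen-activated targets tested, 19 rose, 5 fell and 14 were not called, beside 11.9% and 7.51% of all genes, and their median difference was 0.19 against 0.01 for all genes. The kallikrein KLK4 rose from 20.1 and 18.8 to 41.7 and 40.3 RPKM (2.11-fold, adjusted p = 5.88e-07, limma). ABCC4, an efflux transporter, went from 12.2 and 11.7 to 29.7 and 29.3 RPKM, and the cold-sensing channel TRPM8 from 0.06 and 0.09 to 1.04 and 0.78. TMPRSS2, a membrane protease under androgen control, rose by less, from 24.4 and 26.2 to 32.0 and 31.1 RPKM (log2 difference 0.31, adjusted p = 0.000952, limma). FKBP5, a co-chaperone of steroid receptors, rose from 2.77 and 2.84 to 4.24 and 4.03 RPKM.

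Other genes of the same list moved the other way. SLC45A3, a prostate membrane transporter, fell from 37.4 and 36.5 to 29.5 and 28.9 RPKM, and STEAP2, a metalloreductase, from 294 and 286 to 213 and 204. The elongation factor ELL2 fell from 7.07 and 6.61 to 5.50 and 5.18 RPKM. So the list split, with KLK3 and KLK2 at its upper end.

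Of 19 genes in a list of factors and cofactors of androgen response, 6 fell, 1 rose and 12 were not called, beside 7.51% and 11.9% of all genes. GATA2, a pioneer factor at androgen-receptor sites, fell from 86.9 and 91.4 to 70.7 and 69.3 RPKM, and FOXA1, another, from 205 and 200 to 176 and 173. ETV1, an ETS factor, was the member that rose, from 17.1 in both libraries to 21.6 and 20.9 RPKM.

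Of 8 genes known to be held down by androgen, 1 rose, 1 fell and 6 were not called, shares near the 11.9% and 7.51% of all genes. The chemokine receptor ACKR3 rose (log2 difference 0.13, adjusted p = 0.0353, limma) and the opioid receptor OPRK1 fell (-0.36, adjusted p = 0.0145, limma). Without each of the 4 libraries in turn neither call was kept, with adjusted p from 0.0704 to 0.194 for ACKR3 and from 0.0607 to 0.0944 for OPRK1 in limma. DDC, which makes dopamine and serotonin, was at 106 and 110 RPKM alone and 98.2 and 99.3 in coculture (adjusted p = 0.0523, limma). UGT2B17, which inactivates androgens by glucuronidation, was at 84.8 and 89.5 RPKM alone and 81.1 and 80.5 in coculture (adjusted p = 0.333, limma). UGT2B17 has close copies in the genome, so its reads may be split with them. Without the drug both genes were lower, at 17.5 in both libraries of LNCaP alone for DDC and at 9.77 and 11.3 RPKM for UGT2B17.

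All 35 tested genes of DNA replication and all 30 of mitosis rose in coculture under enzalutamide, beside 11.9% of all genes. Their median differences were 0.89 and 0.82. RRM2, the regulated subunit of ribonucleotide reductase that makes deoxynucleotides, went from 5.68 and 6.30 to 25.1 and 23.4 RPKM (4.05-fold, log2 difference 1.85, SE 0.06, adjusted p = 1.57e-07, limma). CDC6, which loads the MCM helicase at origins, went from 2.79 and 2.96 to 10.0 and 9.42 RPKM. E2F1, which turns on the genes of the S phase, went from 3.50 and 4.06 to 10.7 and 11.6.

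The helicase subunits MCM2 to MCM7 rose together. MCM4 had the largest difference of the 6, from 8.43 and 8.74 to 20.5 and 19.3 RPKM (2.32-fold). MCM6 had the smallest, from 8.76 and 9.37 to 12.7 and 14.9 RPKM (1.53-fold). The smallest rise in the whole replication list was that of CCNE2, an S-phase cyclin, at 1.22-fold (adjusted p = 0.0204, limma).

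Among mitosis genes the proliferation marker MKI67 rose from 3.05 and 3.04 to 7.64 and 7.46 RPKM (2.48-fold, log2 difference 1.08, SE 0.07, adjusted p = 1.12e-05, limma). CDK1, the kinase that drives entry into mitosis, went from 12.9 and 12.6 to 25.5 and 26.4 RPKM. AURKB, a kinase of chromosome segregation, went from 2.46 and 2.40 to 6.48 and 8.43. CCNB1, the cyclin partner of CDK1, rose least, from 24.4 and 27.9 to 33.9 and 32.6 RPKM (1.27-fold). When libraries were left out in turn, 30 to 32 of the 35 and 27 to 29 of the 30 genes still rose.

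**Figure D2:**
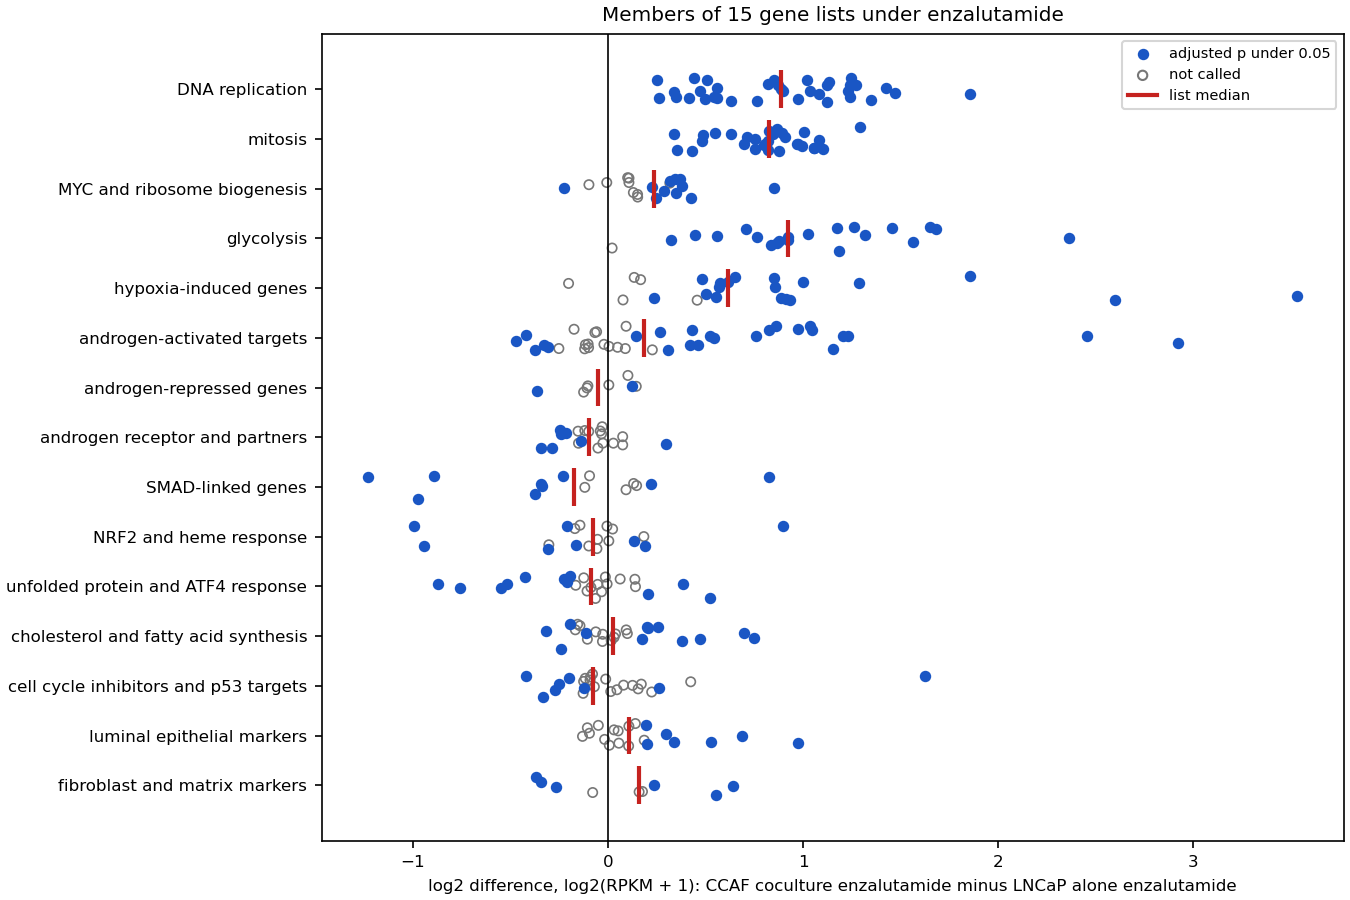
Log2 differences between CCAF coculture and LNCaP alone under enzalutamide for the tested members of 15 gene lists, 1 point a gene; filled points passed an adjusted p of 0.05 and red bars are list medians. All points of DNA replication and mitosis are filled and above 0, with medians of 0.89 and 0.82, and the androgen-activated list spans both sides of 0.

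MYC, a transcription factor of cell growth, rose from 16.8 and 16.9 to 31.5 and 30.9 RPKM (1.85-fold, log2 difference 0.85, SE 0.04, adjusted p = 1.08e-06, limma). Of 20 genes for MYC and ribosome biogenesis, 10 rose and 1 fell, beside 11.9% and 7.51% of all genes, and the median difference was 0.24. The nucleolar protein genes NOP56 (1.35-fold), NOLC1 (1.28-fold) and DKC1 (1.24-fold) rose, each by less than MYC. Of 24 cell cycle inhibitors and p53 targets, 2 rose, 6 fell and 16 were not called, beside 11.9% and 7.51% of all genes. GDF15, a secreted stress factor, rose from 80.5 and 85.7 to 260 and 258 RPKM, and the cell cycle inhibitor CDKN1A fell slightly, from 86.9 and 87.5 to 78.2 and 81.7 (adjusted p = 0.0487, limma).

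Glycolysis moved nearly as a whole: 20 of 21 genes tested rose, beside 11.9% of all genes, none fell, and the median difference was 0.92. The exception was PFKM, the muscle form of phosphofructokinase, at 37.2 and 39.6 RPKM alone and 38.8 and 39.2 in coculture. LDHA, which turns pyruvate into lactate, rose from 115 and 119 to 608 and 603 RPKM (5.18-fold, log2 difference 2.36, SE 0.04, adjusted p = 3.40e-09, limma). SLC16A3, which carries lactate out of the cell, rose from 3.87 and 3.71 to 14.2 and 14.6 RPKM (3.80-fold). PFKP, the platelet form of phosphofructokinase, rose from 14.6 and 13.9 to 46.3 and 47.4, and PGK1, which makes ATP in glycolysis, from 122 and 124 to 337 and 341.

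Of 23 hypoxia-induced genes tested, 18 rose and none fell, beside 11.9% and 7.51% of all genes, with a median of 0.62. NDUFA4L2, a mitochondrial protein made under low oxygen, had the largest named rise on the log2(RPKM + 1) scale, from 6.20 and 6.10 to 82.4 and 81.1 RPKM (13.3-fold, log2 difference 3.53, SE 0.17, adjusted p = 1.08e-06, limma). PLOD2, which hydroxylates collagen lysines, went from 0.22 and 0.13 to 6.16 and 6.07 RPKM. Its ratio of mean RPKM was larger, at 34.6-fold, but its low values rest on 18 and 12 reads, against 506 and 460 in coculture. NDRG1, a stress-response gene, went from 21.2 in both libraries to 77.8 and 80.7 RPKM.

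Not all of the classic low-oxygen genes did so. EGLN3, a prolyl hydroxylase of the pathway, was at 21.3 and 22.6 RPKM alone and 23.9 and 24.5 in coculture (adjusted p = 0.0899, limma). CA9, a carbonic anhydrase, was near 0 in all 4 libraries, at 0.55 RPKM or less. ADM, the 1 tested member of the list with a negative difference (-0.20, adjusted p = 0.546, limma), was under 1 RPKM in all 4 libraries. VEGFA, the angiogenic factor, did rise, from 13.2 and 13.6 to 21.6 in both libraries.

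Further large rises fell in no single list. CP, the copper-carrying ferroxidase ceruloplasmin, rose from 0.90 and 1.08 to 10.1 and 9.68 RPKM (9.96-fold, log2 difference 2.45, SE 0.07, adjusted p = 6.28e-08, limma). TNFSF15, a cytokine of the TNF family, rose from 2.42 and 2.28 to 10.9 and 10.7 RPKM. APLN, the peptide ligand apelin, rose from 0.79 and 0.67 to 4.82 and 4.75, and NFKBIZ, a nuclear regulator of NF-kB, from 0.63 and 0.93 to 4.66 and 4.79. The atypical kinase MAPK4 rose from 1.12 and 1.21 to 5.60 and 6.65 RPKM, and the phospholipase PLA2G4D from 0.21 and 0.13 to 2.80 and 2.97. The long non-coding RNA GAPLINC had 1 and 2 reads alone and 41 and 34 in coculture. Among 12 NF-kB targets and chemokines 3 rose (NFKB1, NFKB2 and BIRC3) and none fell, beside 11.9% and 7.51% of all genes. The call of NFKB2 (adjusted p = 0.00634, limma) was lost without the first library of LNCaP alone (0.0519), and that of BIRC3 (0.0155) without either library of LNCaP alone (0.0782 and 0.06) or without the second coculture library (0.106). In the same list CXCL8 and CCL20 were under 1 RPKM in all 4 libraries.

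IGFBP3, which binds insulin-like growth factors outside the cell, had the largest fall among the named genes. Its level was 155 and 159 RPKM alone and 38.8 and 37.4 in coculture (4.13-fold lower, log2 difference -2.02, SE 0.06, adjusted p = 8.58e-08, limma). The libraries did not overlap. In the absence of drug the gene was at 7.03 and 7.87 RPKM in LNCaP alone, so the coculture level under enzalutamide lay between the levels of LNCaP alone with and without it.

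The SMAD-linked list held 14 tested genes, of which 7 fell, 2 rose and 5 were not called, beside 7.51% and 11.9% of all genes. ID1, an inhibitor of differentiation factors and a known target of BMP signals, fell from 175 and 184 to 78.6 and 73.4 RPKM (2.36-fold lower, log2 difference -1.23, SE 0.07, adjusted p = 2.42e-06, limma). ID3 fell from 69.1 and 74.5 to 33.7 and 38.5, and ID2 from 25.7 and 25.8 to 13.6 and 13.2. SMAD6 and SMAD7, the inhibitory SMADs, fell by 0.38 and 0.34 on the log2 scale. SMAD9, a receptor-activated SMAD of the BMP branch that is not in that list, fell from 24.1 and 24.3 to 9.06 and 8.91 RPKM (2.69-fold lower). In contrast BAMBI, a decoy receptor for the same signals, rose from 48.6 and 50.0 to 86.7 and 89.5 RPKM.

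Other large falls came from varied roles. SPRY4, a brake on ERK signalling, fell from 6.73 and 6.31 to 2.41 and 2.40 RPKM, and the protease CAPN5 from 6.48 and 6.41 to 2.24 and 1.73. NUCB2, the precursor of nesfatin, fell from 115.6 and 119.4 to 52.2 and 50.9 RPKM, and QSOX1, a secreted sulfhydryl oxidase, from 136 and 142 to 70.8 and 71.7. CSMD1 fell from 15.7 and 15.1 to 7.33 in both libraries. NPB, a neuropeptide gene, was at 2.33 and 2.43 RPKM alone and 0.91 and 0.69 in coculture, a call lost without either library of LNCaP alone and without the second coculture library. The immunoglobulin kappa gene IGKC was listed at 0 in both CCAF coculture libraries and had 8 and 17 reads alone. Its call was lost without the second library of LNCaP alone or either coculture library.

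Of 18 genes of the NRF2 and heme response, 5 fell and 3 rose, beside 7.51% and 11.9% of all genes. NQO1, a quinone reductase, fell from 127 in both libraries to 62.9 and 64.1 RPKM (2.00-fold lower, adjusted p = 4.64e-07, limma), and SLC7A11, the cystine importer, from 16.1 and 16.5 to 7.95 and 8.09. Of 23 genes of the unfolded protein and ATF4 response, 8 fell and 3 rose, beside the same shares. Those that fell include the amino acid enzymes ASNS (55.5 and 53.1 to 30.0 and 28.5 RPKM) and PHGDH (184 and 198 to 133 in both), while the mTOR inhibitor DDIT4 rose from 77.5 and 82.5 to 114.5 and 116.2. The iron-storage chain FTH1 fell from 1977 and 1978 to 1386 and 1434 RPKM.

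Of 24 genes of cholesterol and fatty acid synthesis tested, 8 rose and 4 fell, beside 11.9% and 7.51% of all genes. The fatty acid desaturases SCD (100 in both libraries to 170 and 168 RPKM) and FADS2 (130 and 131 to 210 and 212) rose, as did ACLY, which supplies acetyl-CoA. The 4 that fell, MSMO1, HMGCS1, IDI1 and CYP51A1, are enzymes of sterol synthesis, while FDPS of the same route rose by 0.20 on the log2 scale.

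The same coculture was then set beside its drug-free counterpart, which shares no library with it. With DMSO, 1518 genes changed (9.46%), 878 higher (5.47%) and 640 lower (3.99%). That count was 701 or 824 without the first or second library of LNCaP alone with DMSO, 640 or 699 without the first or second CCAF coculture with DMSO, and 679 with only these groups fitted, and the shares below rest on it. Of the 1903 genes that rose under enzalutamide, 466 also rose with DMSO, which is 24.5% of the enzalutamide list and 53.1% of the DMSO list. For falls, 252 genes were shared, 20.9% of the 1204 and 39.4% of the 640. A further 78 genes rose under enzalutamide and fell with DMSO, and 25 did the reverse. Across the 16042 genes, which are not independent, the differences with and without drug had a Pearson r of 0.304 and a Spearman rho of 0.270.

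The difference between the coculture effects with and without drug was tested directly, and 1125 genes passed (7.01%), 732 with a higher and 393 with a lower effect under enzalutamide. Leaving out single libraries gave 623 to 813, and the count fell by more than 1.5 times in 6 of 8 cases: 642 without the first library of LNCaP alone with DMSO, 623 without the first of LNCaP alone with enzalutamide, 648 and 628 without the first and second CCAF coculture with DMSO, and 718 and 647 without the first and second CCAF coculture with enzalutamide. Of the 1903 genes that rose, 620 had a higher effect under the drug and 45 a lower one. Of the 1204 that fell, 219 had a more negative effect and 2 a less negative one. Both tests use the same enzalutamide libraries. Genes picked for a change under the drug are therefore tilted toward a larger effect there, and these splits cannot show that the drug enlarges the effect.

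**Figure D3:**
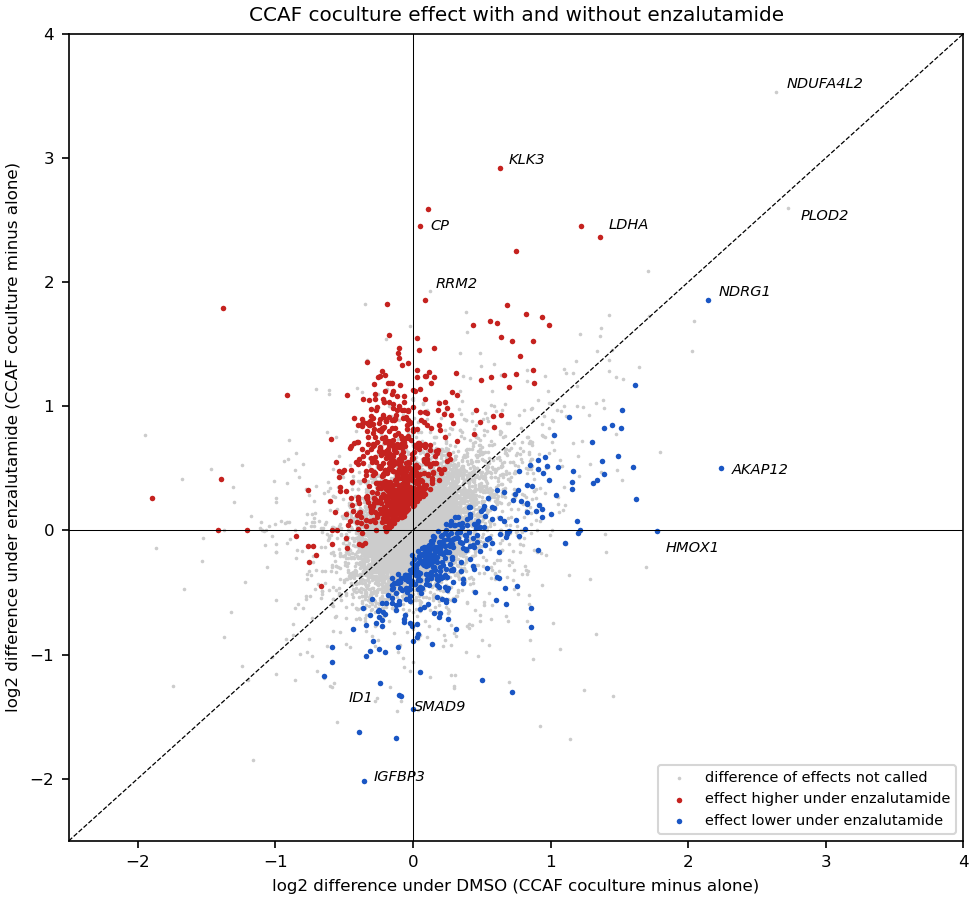
Log2 differences between CCAF coculture and LNCaP alone with DMSO (horizontal) and with enzalutamide (vertical) for 16042 genes; the dashed line marks equal effects. Red and blue points are the 732 and 393 genes whose effect was higher or lower under enzalutamide, and they lie above and below the dashed line.

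The cell cycle genes differed most as a group. Of 35 replication genes 30 had a higher effect under enzalutamide, and 29 of 30 mitosis genes did, beside 4.56% of all genes with a higher and 2.45% with a lower effect. With DMSO no replication gene rose and 2 fell, and among mitosis genes none rose and 17 fell, beside 5.47% and 3.99% of all genes. RRM2 was at 66.6 and 69.4 RPKM alone and 72.2 and 72.6 in coculture with DMSO (adjusted p = 0.438, limma), so its difference of effects was 1.76 (SE 0.09, adjusted p = 1.76e-05, limma). MKI67 was at 19.8 and 22.5 RPKM alone and 20.7 and 19.7 in coculture without drug. In coculture under enzalutamide both genes stayed below these levels.

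Glycolysis and low-oxygen genes moved with and without the drug. With DMSO 20 of 21 glycolysis genes and 20 of 23 hypoxia-induced genes rose, beside 5.47% of all genes. PGK1 differed by 1.44 with DMSO and 1.46 with enzalutamide, and the difference between these, 0.01 (SE 0.06), did not pass (adjusted p = 0.932, limma). For 7 of the 21 glycolysis genes the effect under the drug was higher and for 3 it was lower, beside 4.56% and 2.45% of all genes. LDHA was among the 7, at 391 and 364 RPKM alone and 976 and 966 in coculture with DMSO, a smaller difference (1.36) than under enzalutamide. In the hypoxia list 1 gene had a higher effect under the drug and 7 a lower one: EGLN3, for instance, rose with DMSO from 7.97 and 7.21 to 16.4 and 16.1 RPKM, against the difference under enzalutamide that did not pass.

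Androgen-activated targets were split in the difference of effects, but not with DMSO. With DMSO 23 of 38 rose and none fell, beside 5.47% and 3.99% of all genes, with a median of 0.44. The effect under the drug was higher for 6 genes and lower for 11 on the log2(RPKM + 1) scale, beside 4.56% and 2.45% of all genes. For 2 of the 11 the ratio of mean RPKM went the other way. TRPM8 was 12.1-fold higher under the drug and 3.05-fold higher with DMSO, and ADAM7, of the ADAM family, 4.42-fold and 3.02-fold. Both ratios under the drug rest on low levels in LNCaP alone, at 0.42 and 0.36 RPKM for ADAM7 and lower still for TRPM8. KLK3 rose by 0.64 with DMSO (1243 and 1145 to 1861 and 1849 RPKM), and the effect under enzalutamide was larger by 2.28 (SE 0.08, adjusted p = 1.97e-06, limma). TMPRSS2 went from 105 and 98.2 to 161 and 162 RPKM with DMSO, and its effect was smaller under the drug by 0.35 on the log2 scale (adjusted p = 0.00795, limma). The repressed genes DDC and UGT2B17 fell in coculture with DMSO, to 9.79 and 10.1 RPKM and to 6.37 and 6.97 RPKM. For both the difference from the enzalutamide effect passed (adjusted p = 0.000134 and 0.0198, limma).

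For HMOX1, which breaks down heme, the 2 effects differed. With DMSO it rose from 5.51 and 6.24 to 23.7 and 21.3 RPKM, and under enzalutamide it was at 6.41 and 6.25 alone and 5.69 and 6.98 in coculture, where the libraries overlapped. The effects differed by -1.78 (SE 0.12, adjusted p = 3.94e-05, limma). AKAP12, a kinase anchor, rose with DMSO from 1.28 and 1.00 to 9.26 and 8.93 RPKM (7.97-fold) and with enzalutamide from 0.05 and 0.11 to 0.52 and 0.54 (6.69-fold), and the difference of effects, -1.74, is on the log2(RPKM + 1) scale. Under enzalutamide the call was lost with only the 2 groups fitted (adjusted p = 0.0609, limma). ANGPT2, a ligand of vessel remodelling, rose with DMSO from 0.80 and 0.82 to 4.60 and 4.52 RPKM and was at 0.10 in both libraries alone and 0.39 and 0.23 in coculture under enzalutamide.

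IGFBP3, ID1 and SMAD9 moved more under the drug than without it. Their effects differed by -1.66, -0.99 and -1.25, each with an adjusted p of 0.00026 or lower by limma. CP was at 0.57 and 0.55 RPKM alone and 0.61 and 0.63 in coculture with DMSO, so that its effect was larger by 2.40 under enzalutamide (adjusted p = 9.61e-06, limma).

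**Figure D4:**
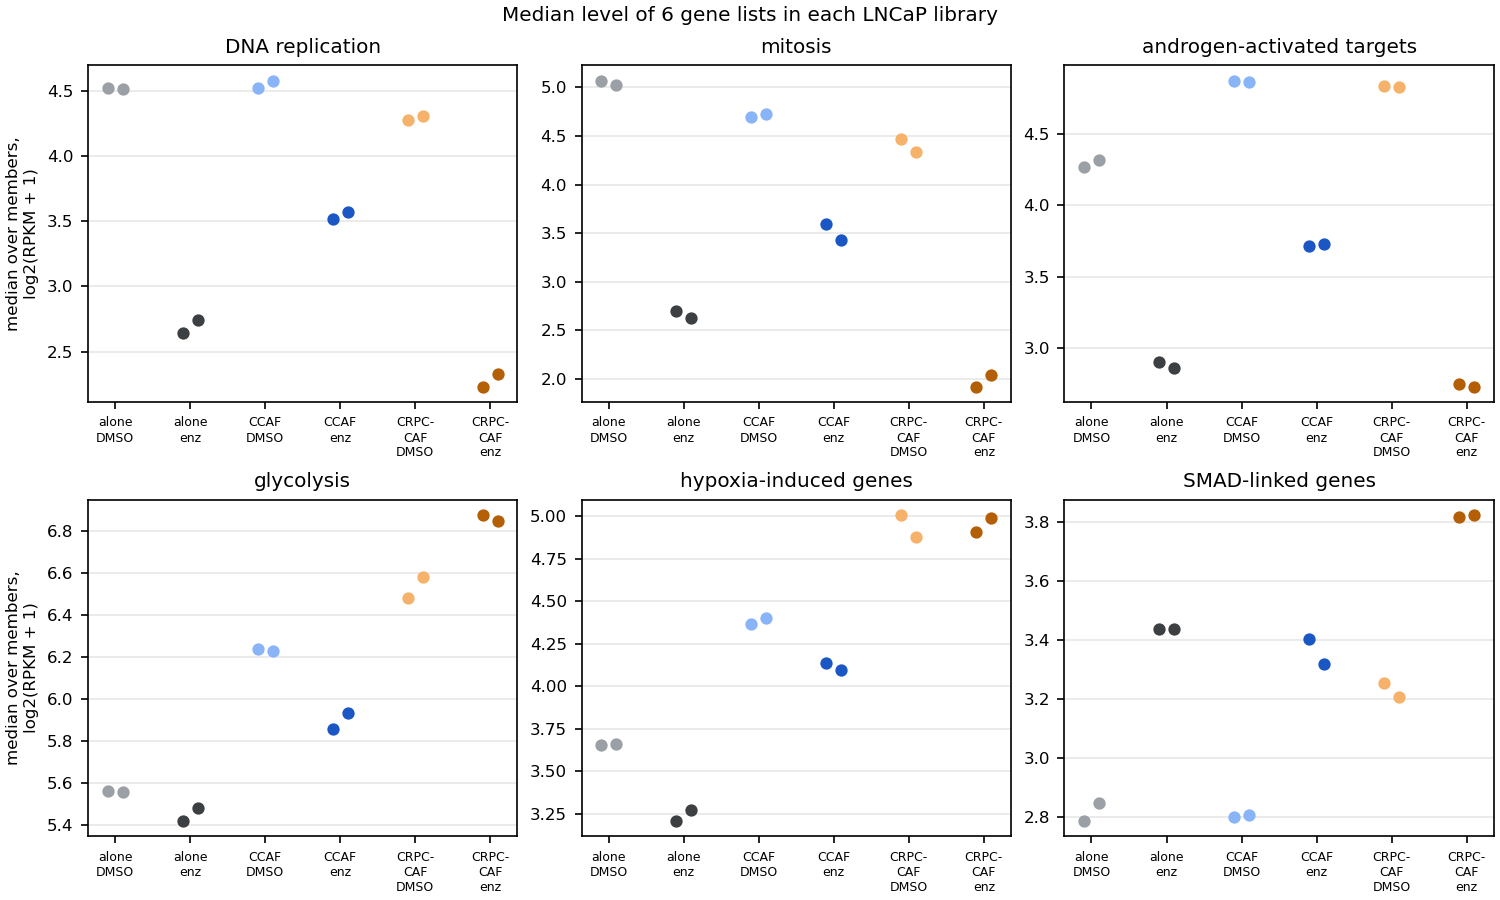
Median log2(RPKM + 1) over the tested members of 6 gene lists in each LNCaP library, 1 point a library; enz stands for enzalutamide. For DNA replication and mitosis the CCAF coculture libraries with enzalutamide lie between LNCaP alone with enzalutamide and all DMSO libraries, and the CRPCCAF coculture with enzalutamide lies lowest.

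The last comparison asked whether the cells with CCAFs differed from those with CRPCCAFs under the same drug. It shares the CCAF coculture libraries with the comparison above. 5197 genes changed (32.4%), 2226 higher with CRPCCAFs (13.9%) and 2971 lower (18.5%). DNA replication and mitosis were lower with CRPCCAFs, with 34 of 35 and 30 of 30 genes lower and medians of -1.12 and -1.43. RRM2 was at 3.61 and 4.18 RPKM with CRPCCAFs, 6.22-fold below its level with CCAFs, and MKI67 was at 1.34 and 1.41. MYC was at 8.93 and 9.33 RPKM, 3.42-fold below, and 19 of 20 genes of its list were lower.

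KLK3 and KLK2 were also lower with CRPCCAFs, at 178 and 180 RPKM and at 4.50 and 4.20 RPKM (2.51-fold and 2.64-fold below CCAF coculture). TMPRSS2 went the other way, at 73.1 and 74.0 RPKM with CRPCCAFs. Of the 38 androgen-activated targets 19 were lower and 7 higher, beside 18.5% and 13.9% of all genes. The 4 other named genes that were lowest relative to CCAFs, MYBL2, ESCO2, ASF1B and CDC6, serve DNA replication, chromatin assembly, cohesion or the cell cycle.

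Other lists stood higher with CRPCCAFs, with 19 of 23 hypoxia-induced, 17 of 21 glycolysis and 10 of 12 NF-kB genes higher, beside 13.9% of all genes. NDUFA4L2 was at 243 and 251 RPKM, 3.02-fold above CCAF coculture. HMOX1 was at 124 and 125 RPKM, 19.7-fold above. IGFBP3 was at 206 and 209 RPKM, 5.46-fold above, while SMAD9 was at 9.54 and 9.76, a difference of 0.09 (SE 0.06) that did not pass (adjusted p = 0.307, limma). With HMOX1, the named genes with the largest differences on the log2(RPKM + 1) scale were CYP26A1, which degrades retinoic acid, at 32.3 and 31.7 RPKM (155-fold), IGFBP5, another binding protein of insulin-like growth factors, at 22.9 and 21.5 (113-fold), LCN2, a siderophore-binding lipocalin, at 23.8 and 23.2 (54.7-fold), and C8orf4 at 64.0 and 63.1 (22.8-fold). Of 9 fibroblast markers tested 7 were higher with CRPCCAFs (COL1A1, COL5A1, COL6A1, COL6A2, FN1, TNC and FSTL1) and none lower, and CD68 was higher. The summed fibroblast markers were 302 to 309 RPKM with CRPCCAFs, with FN1 at 179 to 187, and the summed leukocyte markers 22.9 to 23.4, of which CD68 reached 22.3, and their part in these differences was not tested. Of the 25 fibroblast markers 16, COL1A2 (0.29 RPKM or less) among them, and of the 11 leukocyte markers 10, PTPRC (0.02 or less) among them, were under 1 RPKM in all 12 libraries.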

How the data were processed

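Total RNA of LNCaP cells was extracted with Trizol and sequenced on a HiSeq after NEBNext Ultra library preparation, per the labels' protocols. The deposited table holds RPKM values, per the file headers, for 12 libraries in 6 groups of 2. HISAT2, HTSeq, DESeq2, hg19 and mm10 are listed in the submitters' processing notes without a role, and the settings are not stated. The 12 fibroblast libraries were not used here. Of 44591 rows, 27 with dates for names were dropped.

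The members and gene lists were chosen with earlier results of these data known. Genes at 1 RPKM or more in at least 2 libraries (16042) were fitted on log2(RPKM + 1) by limma (version 3.58.1, R 4.3.3), with a mean-variance trend, 6 groups, no block and 6 residual degrees of freedom. P values are two-sided and adjusted by Benjamini-Hochberg over all genes in each of 4 comparisons, with a threshold of 0.05. Read numbers were recovered from the steps of the RPKM values and cover at least 99.9% of each total, so the depth is known, but the test does not use it. RPKM keeps no correction for the makeup of a library, so median-of-ratios scaling was tried.

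Named genes are the 15 largest rises and 15 largest falls that passed the test with a mean of at least 1 RPKM in a group and libraries apart, clone, locus, short RNA, antisense, LINC and pseudogene names left out. They also include up to 4 members of each of 31 lists with the smallest p, the 5 largest differences each way in the other tests, and 15 genes named at the start, such as KLK3. Some named genes are not reported here. Other list members given as examples were chosen after their values were seen. 2 list names were matched through RefSeq synonyms. Libraries of 1 number in different groups had deviations correlated between -0.0617 and 0.0840. These values show no strong effect shared by number, but cannot exclude that libraries of 1 number were made together. Replicates differed by more than counting noise, so no pair looked like 1 library deposited again. That does not show separate cultures. Each library was left out in turn, and other settings were scaling, a replicate block, a fit of only the groups compared, all genes without the filter, and a pseudocount of 0.1.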

Additional observations from a re-analysis of the deposited data

Results flagged for a closer look

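The coculture effect differed with and without enzalutamide for 1125 genes in limma, which is a difference between 2 conditions under the same contrast. All values here are the effect under enzalutamide minus the effect with DMSO, on the log2(RPKM + 1) scale. Among kallikreins the difference was 2.28 for KLK3, 1.24 for KLK2 and 0.80 for KLK4. TMPRSS2, another androgen target, had a negative difference of -0.35, and 2 genes held down by androgen had positive ones, at 0.48 for UGT2B17 and 0.63 for DDC. Growth and cell cycle genes had positive differences, at 0.66 for MYC, 1.76 for RRM2, 1.14 for MKI67, 1.24 for CDK1 and 1.57 for FAM64A, a regulator of mitosis. CP stood at 2.40 and the small membrane protein gene TMEM238 at 1.81, whose libraries of LNCaP alone with enzalutamide, at 14.4 and 24.3 RPKM, lay far apart. Negative differences were found for IGFBP3 (-1.66), HMOX1 (-1.78), ANGPT2 (-1.37), SMAD9 (-1.25) and NDRG1 (-0.29). AKAP12 stood at -1.74, but its ratio of mean RPKM was 6.69-fold under enzalutamide and 7.97-fold with DMSO. No cause of these differences was tested.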

How the results depend on the processing

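With 2 libraries a group, counts depended on how many libraries set the spread. When only the groups compared were fitted, 1958 genes changed under enzalutamide (1220 higher and 738 lower), and 679 changed with DMSO. Between CRPCCAF and CCAF coculture under enzalutamide that fit gave 4351 genes, against 5197 with all groups. That count was also lower when any 1 library of those groups was left out. Leaving out single libraries, with the lone library assumed to vary like the other groups, gave 1672 to 1951 genes (1104 to 1336 higher, 568 to 663 lower), 623 to 813 for the difference of effects and 640 to 824 with DMSO. With the replicate number as a block, 3000 genes changed under enzalutamide, 1025 for the difference of effects, 5136 between fibroblast types and 1414 with DMSO, so the block changed no count by over 1.5 times. Median-of-ratios scaling moved the share of rises from 61.2% to 55.7% (1723 higher and 1368 lower). Of 132 named genes 123 changed and 101 of these did so under every alternative. 22 were lost under at least 1, and 20 of these without a library. Most named genes were picked because they passed the test, so these counts of named genes do not describe all genes that changed. 3 named genes that were not called changed sign. HMOX1 ran from -0.13 to 0.12 over the fits without a library, with 0.011 without the first library of LNCaP alone and 0.12 without the first coculture library. IGFBP5 ran from -0.021 (without the second library of LNCaP alone) to 0.12, and LCN2 from -0.31 to 0.11 (without the first library of LNCaP alone).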

Other observations

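Several genes outside the groups above changed in the CCAF coculture under enzalutamide. The sodium pump subunit ATP1B1 rose from 202 and 204 to 494 and 485 RPKM (2.41-fold, adjusted p = 4.40e-08, limma). Of 13 genes of retinoid metabolism and receptors tested, 2 rose, 3 fell and 8 were not called, beside 11.9% and 7.51% of all genes. Those that rose were DHRS3, a retinal reductase, from 4.84 and 4.46 to 13.0 and 14.2 RPKM, and ALDH1A3, which makes retinoic acid, from 11.6 and 11.5 to 20.9 and 21.1. AOC1, a diamine oxidase, rose from 6.31 and 5.85 to 15.9 and 15.3 RPKM, and the adhesion gene CDH3 from 1.77 and 1.72 to 3.31 and 3.54. The transcription factor SOX4 rose from 31.1 and 32.5 to 49.7 and 47.9 RPKM.

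Of 24 interferon response genes 4 rose and 2 fell, shares near the 11.9% and 7.51% of all genes, with a median of 0.01, as over all genes. OAS3, an antiviral synthetase, rose from 2.03 and 2.15 to 4.27 and 4.72 RPKM. VWF, an endothelial marker, rose from 0.77 and 0.72 to 3.83 and 4.22 RPKM, while the other 6 endothelial markers were under 1 RPKM in all 12 libraries. The basal keratin KRT5 was at 0 and TP63 at 0.04 RPKM or less in the 4 libraries. Of 8 basal and mesenchymal markers tested VIM and LAMB3 rose and none fell, beside the same shares of all genes.

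The remaining lists are given beside 11.9% of all genes that rose and 7.51% that fell. Of 14 genes of ERK output and feedback 2 rose (FOS and DUSP5) and 2 fell (SPRY4 and JUNB), and FOS, an immediate early factor, stood at 0.44 and 0.69 RPKM alone and 2.04 and 2.06 in coculture. Of 9 Wnt-linked genes 4 rose (MMP7, RNF43, SOX4 and C8orf4) and none fell, and MMP7, a matrix protease, was listed at 0 in both libraries alone and at 1.01 and 0.81 RPKM in coculture. Of 9 YAP-linked genes 2 rose (AMOTL2 and NUAK2), and of 9 genes of steroid synthesis and metabolism 3 rose (SRD5A3, HSD17B11 and CYP11A1), with no fall in either list. Of 8 genes of the IGF axis IGFBP3 and IGF1R fell and none rose. Among 11 iron genes 2 rose (CP and TFRC) and 2 fell (FTH1 and FTL), and among 11 polyamine genes 4 rose and 2 fell. None of 3 muscle and pericyte markers tested passed, and 1 of 2 neuroendocrine markers tested, SYT4, rose. The calls of DUSP5, AMOTL2, NUAK2, IGF1R, SRD5A3 and FTL were lost under at least 1 alternative.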
